A study of Homo sapiens with 6 samples.

Results

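Zinc leaves and enters the cytosol of human cells through 2 families of membrane proteins, the SLC30 exporters and the SLC39 importers, and 10 of their genes were followed here in HK-2 cells given TEPP-46. The 10 genes were *SLC30A1*, *SLC30A5*, *SLC30A6*, *SLC30A7*, *SLC30A9*, *SLC39A1*, *SLC39A6*, *SLC39A7*, *SLC39A10* and *SLC39A14*, taken by symbol from the 29483 genes of the expression table, and all 10 were present and passed the filter on low values. They were named with the outcome of this very comparison in view, so their values are given as a description and carry no p-value.

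HK-2 is an established line of immortalised human proximal tubular epithelial cells, grown here as 1 line. All 6 samples were kept in medium with 25 mM D-glucose (high glucose, HG) for 7 days. The control group of 3 libraries then had no TEPP-46, and the case group of 3 libraries had 10 μM TEPP-46, a small molecule that favours the tetramer of pyruvate kinase M2, for 1 further day with the high glucose continued. Transcript levels were measured by paired-end RNA sequencing as FPKM, the fragments scaled to gene length in kilobases and to the reads of the library, so that levels of different genes can be compared. No library from normal glucose was analysed here, so each difference below is one between HG with and HG without TEPP-46.

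SLC30 proteins, also called ZnT, move zinc out of the cytosol, either across the plasma membrane or into organelles. SLC39 proteins, also called ZIP, move it into the cytosol, from outside the cell or from organelles. Free zinc is sensed by the transcription factor *MTF1*, which binds metal response elements in the promoters of the metallothionein genes and of *SLC30A1*, and metallothioneins bind the metal. In the proximal tubule, zinc filtered by the glomerulus is taken back from the forming urine.

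The deposited values rested on 18634891, 17924033 and 17378710 reads in control replicates 1, 2 and 3 and on 16711934, 16047243 and 15363254 reads in case replicates 1, 2 and 3, as recovered from the steps between FPKM values. These are the library totals behind the FPKM values, not all reads sequenced, and they were lower in every case library than in every control library. Between 160 and 11664 reads lay behind each value of the 10 genes, fewest for *SLC39A10* and most for *SLC39A1*. Such counts cover counting error only, and the spread between replicates was wider in the case group, with a median SD over genes of 0.19 on the log2 scale against 0.09 in the control group.

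The proximal tubule label was checked against marker genes. None of the 14 proximal tubule markers listed reached the filter on low values. The 11 of them in the table summed to 0.894 to 0.960 FPKM in the control libraries and 0.643 to 0.799 FPKM in the case libraries, with the peptidase gene *MME* the most abundant. *LRP2*, which encodes the endocytic receptor megalin, had at most 1 read in any library. Keratins of simple epithelium were abundant in all 6 libraries, with *KRT19* at 352 ± 6.50 FPKM (SD, n = 3) in the control group and 340 ± 42.4 FPKM (SD, n = 3) in the case group, and *KRT7* at 329 ± 70.0 FPKM and 287 ± 89.8 FPKM (SD, n = 3 each). *KRT8*, at 344 ± 10.8 FPKM and 271 ± 28.5 FPKM (SD, n = 3 each), was lower in every case library than in every control library. After library scaling, 20.4% of all genes tested were likewise lower in every case library, and *KRT8* was not called. Of the 9 epithelial markers listed, 6 reached the filter on low values. *PAX2* and *PAX8* did not, with at most 4 and 22 reads in a library, and *CDH2* was not analysed here. The cells carried abundant keratin transcripts and next to none of the transcripts that mark a differentiated proximal tubule.

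Among the 10 zinc transporter genes, *SLC30A1* was higher and *SLC39A10* lower in the case group, and the other 8 had log2 fold changes between -0.22 and 0.09. *SLC30A1* was 2.51-fold its control level, and *SLC39A10* was at 0.457 of its control level. With limma fitted over the 13599 genes tested and an adjusted p-value of at most 0.05 as the call, 2 of the 10 genes were called, beside 13.2% of all genes tested. One gene was called higher, beside 7.34% of all genes, and 1 was called lower, beside 5.84%. They were also the members whose log2 fold change was 1 or more in size, which 2.49% of all genes tested reached. The voom fit on the recovered reads called the same 2 genes, beside 20.8% of all genes tested. Since the members were chosen on this contrast, nothing is read from these shares.

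**Figure D1:**
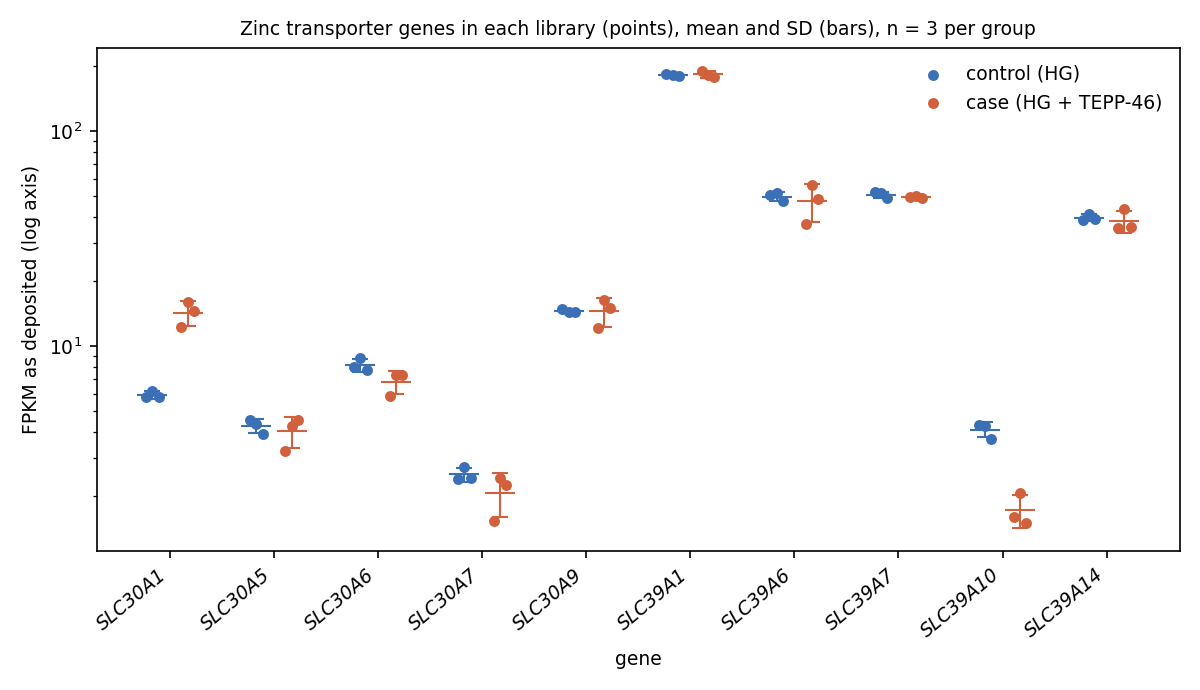
Deposited FPKM (log axis) of each of the 10 zinc transporter genes, with 1 point per library, 3 control (blue) and 3 case (orange), and bars for the mean and SD. The case points of *SLC30A1* lie at 12.3 to 16.1 FPKM, above its control points at 5.77 to 6.18 FPKM, and the case points of *SLC39A10* at 1.51 to 2.07 FPKM lie below its control points at 3.70 to 4.31 FPKM.

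*SLC30A1*, on chromosome 1 (GRCh38, chr1:211571568-211579161, minus strand, ENSG00000170385), encodes ZnT1, the exporter of the plasma membrane. It measured 5.78, 6.18 and 5.77 FPKM in control replicates 1, 2 and 3 and 12.3, 16.1 and 14.5 FPKM in case replicates 1, 2 and 3. All 3 case libraries stood above all 3 control libraries, with no overlap between the groups. The values rested on 549 to 606 reads per control library and 1123 to 1413 reads per case library. The log2 fold change, case minus control on the log2(scaled FPKM + 0.1) scale, was 1.33 (SE 0.10, 95% interval 1.10 to 1.55), which lay at the 99.2 percentile of all genes tested.

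*SLC39A10*, on chromosome 2 (chr2:195575977-195737702, plus strand, ENSG00000196950), encodes ZIP10, an importer of the plasma membrane. It measured 4.31, 4.24 and 3.70 FPKM in control replicates 1, 2 and 3 and 1.61, 2.07 and 1.51 FPKM in case replicates 1, 2 and 3. Every case library was below every control library, and the groups were separated by a wider gap than the range within either group. The reads behind them numbered 445 to 555 per control library and 160 to 230 per case library. Its log2 fold change was -1.13 (SE 0.14, 95% interval -1.44 to -0.81), at the 0.743 percentile of all genes tested. Without control replicate 2 the fold change was -1.10 and the gene was no longer called, in a fit that called 69 genes or 0.507% of those tested.

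**Figure D2:**
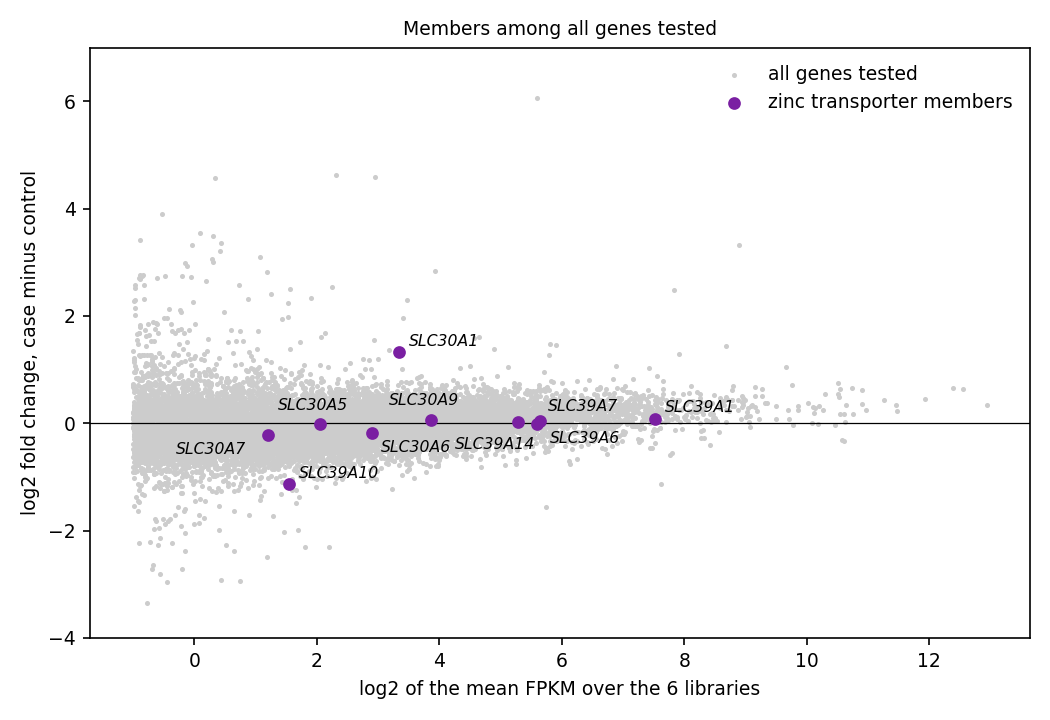
Log2 fold change, case minus control, against the log2 of the mean FPKM over the 6 libraries, for the 13599 genes tested (grey) and the 10 zinc transporter genes (purple, named). *SLC30A1* at 1.33 and *SLC39A10* at -1.13 lie at the 99.2 and 0.743 percentiles of all genes tested, and the other 8 lie between -0.22 and 0.09.

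The ratio of *SLC30A1* to *SLC39A10* within a library does not change when all genes of that library are divided by 1 scaling factor. Its log2 value was 0.43, 0.54 and 0.64 in control replicates 1, 2 and 3 and 2.93, 2.96 and 3.27 in case replicates 1, 2 and 3. In FPKM, *SLC30A1* was thus above *SLC39A10* in every library, by a ratio that was 5.72-fold larger in the case group. This holds for that importer gene only, since *SLC39A1*, at 178 to 191 FPKM, was above *SLC30A1* in every library. *SLC30A1* made up 16.3%, 17.0% and 16.9% of the summed FPKM of the 5 SLC30 genes in control replicates 1, 2 and 3, and 35.1%, 34.6% and 33.2% in case replicates 1, 2 and 3. The share varied by less than 2 percentage points within either group. The share of *SLC39A10* in the summed FPKM of the 5 SLC39 genes was 1.31%, 1.28% and 1.16% in the control libraries and 0.511%, 0.622% and 0.482% in the case libraries. It was thus a minor importer by level in both groups.

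*SLC30A5*, *SLC30A6* and *SLC30A7* encode the exporters ZnT5, ZnT6 and ZnT7, which load zinc into the early secretory pathway, ZnT5 and ZnT6 as a heterodimer. *SLC30A5* (chr5:69093991-69131069) lay at 3.90 to 4.53 FPKM in control libraries and 3.25 to 4.50 FPKM in case libraries, with a log2 fold change of -0.02 (SE 0.13, 95% interval -0.32 to 0.27). *SLC30A6* (chr2:32165841-32224379) was at 7.70 to 8.75 FPKM and 5.84 to 7.32 FPKM, with -0.18 (SE 0.10, 95% interval -0.42 to 0.06). For *SLC30A7* (chr1:100896076-100981757), the least abundant exporter of the 5, the control libraries gave 2.41 to 2.74 FPKM and the case libraries 1.54 to 2.44 FPKM, with a log2 fold change of -0.22 (SE 0.16, 95% interval -0.59 to 0.16). None of the 3 was called, and case replicate 1 was the lowest of the 6 libraries for each of them. The log2 ratio of *SLC30A5* to its partner *SLC30A6* was -0.81, -1.01 and -0.98 in the control libraries and -0.85, -0.78 and -0.70 in the case libraries, and the groups overlapped.

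*SLC30A9* (chr4:41990502-42090461) encodes ZnT9, an exporter of mitochondria. It was the most abundant SLC30 gene of the 5 in the control group at 14.5 ± 0.231 FPKM (SD, n = 3), and measured 14.5 ± 2.24 FPKM (SD, n = 3) in the case group. Its log2 fold change was 0.07 (SE 0.10, 95% interval -0.17 to 0.30), and the gene was not called. The case libraries ran from 12.1 to 16.4 FPKM and enclosed the control libraries at 14.4 to 14.8 FPKM.

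Among the importers, *SLC39A1* (chr1:153959099-153968184), for ZIP1 of the plasma membrane, was by far the most abundant. It measured 185, 182 and 180 FPKM in control replicates 1, 2 and 3 and 191, 182 and 178 FPKM in case replicates 1, 2 and 3. The deposited values of the groups overlapped. After division by the library scaling factors they did not, at 174 to 180 against 180.1 to 202 scaled FPKM, and the log2 fold change of 0.09 (SE 0.08, 95% interval -0.09 to 0.26) was not called. With *SLC30A1* and *SLC39A10*, *SLC39A1* was thus 1 of 3 members whose scaled values did not overlap between groups, beside 39.9% of all genes tested. *SLC30A1* and *SLC39A1* were the 2 with all case libraries higher, beside 19.5% of all genes tested, though the log2 fold change of *SLC39A1* was -0.13 after quantile normalization and -0.11 on the TPM scale, and *SLC39A10* the 1 with all case libraries lower, beside 20.4%. *SLC30A6* went the other way, since its deposited values did not overlap, at 7.70 to 8.75 FPKM against 5.84 to 7.32 FPKM, and its scaled values did. *SLC39A1* shared 60.8% of its annotated exon bases with ENSG00000285779 on the same strand, which was not used here, and 8.26% with *CREB3L4* on the opposite strand. Whether reads were counted by strand is not given in the sources used here, so the reads of such overlapping genes cannot be told apart.

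*SLC39A6* (chr18:36108531-36129385), for ZIP6, which pairs with ZIP10 at the plasma membrane, had the widest spread in FPKM of the 10 genes among the case libraries (SD 9.57 FPKM, n = 3). It measured 50.2, 51.5 and 47.1 FPKM in control replicates 1, 2 and 3 and 37.1, 56.1 and 48.5 FPKM in case replicates 1, 2 and 3. Case replicate 1 was the lowest of the 6 libraries and case replicate 2 the highest, so that the control libraries lay between them. The log2 fold change was -0.01 (SE 0.13, 95% interval -0.30 to 0.28). The log2 ratio of *SLC39A6* to its partner *SLC39A10* was 3.54, 3.60 and 3.67 in the control libraries and 4.53, 4.76 and 5.01 in the case libraries. In FPKM, the excess of *SLC39A6* over *SLC39A10* was 2.24-fold larger in the case group, with no overlap between the groups, while *SLC39A6* itself was not called.

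*SLC39A14* (chr8:22367278-22434129) encodes ZIP14, an importer of zinc, iron and manganese, and ran from 38.7 to 41.3 FPKM over the control libraries and from 35.5 to 43.3 FPKM over the case libraries. Its log2 fold change was 0.02 (SE 0.09, 95% interval -0.18 to 0.22). *SLC39A7* (chr6:33200305-33204439) encodes ZIP7, which releases zinc from the endoplasmic reticulum into the cytosol, and was at 48.7 to 51.8 FPKM and 48.8 to 49.8 FPKM. Its log2 fold change of 0.04 had the smallest SE of the 10 genes at 0.07 (95% interval -0.12 to 0.21). Neither gene was called. The deposited values of *SLC39A7* in the case libraries lay within the range of its control libraries, and in scaled FPKM case replicate 1 was above them, at 52.5 against at most 50.4. *SLC39A7* shared 9.02% of its exon bases with *RXRB* on the opposite strand, and *RXRB* was at 15.4 to 17.3 FPKM in the control libraries and 16.6 to 20.8 FPKM in the case libraries.

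For the 8 genes that were not called, the 95% intervals together ran from -0.59 to 0.30 on the log2 scale and each included 0, so differences inside them could not be told from none with 3 libraries per group. In scaled FPKM, case replicate 1 was the lowest of the 6 libraries for 5 of the 10 members and the highest for 2, *SLC39A1* and *SLC39A7*, and case replicate 2 was the highest for 4. Without case replicate 1 the log2 fold changes of these 5, *SLC30A5*, *SLC30A6*, *SLC30A7*, *SLC30A9* and *SLC39A6*, were 0.10, -0.10, -0.04, 0.17 and 0.13, and none of the 5 was called. Those of *SLC30A1* and *SLC39A10* were then 1.41 and -1.11, and both were called in a fit that called 16.8% of all genes tested.

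In the control group the levels in FPKM fell in the order *SLC39A1*, *SLC39A7*, *SLC39A6*, *SLC39A14*, *SLC30A9*, *SLC30A6*, *SLC30A1*, *SLC30A5*, *SLC39A10* and *SLC30A7*. The ranges of neighbours overlapped for *SLC39A7* with *SLC39A6* and for *SLC30A5* with *SLC39A10*, and all other neighbours were separated. In the case group *SLC30A1* stood sixth at 14.3 ± 1.91 FPKM (SD, n = 3), with a range that overlapped that of *SLC30A9*, and *SLC39A10* stood last at 1.73 ± 0.302 FPKM (SD, n = 3), with a range that overlapped that of *SLC30A7*. *SLC39A6* could not be placed there, since its range of 37.1 to 56.1 FPKM overlapped those of both *SLC39A7* and *SLC39A14*, while *SLC39A7* at 48.8 to 49.8 FPKM stood above *SLC39A14* at 35.5 to 43.3 FPKM. The summed FPKM of the 5 SLC39 genes was 330, 330 and 319 in the control libraries and 315, 333 and 312 in the case libraries. That of the 5 SLC30 genes was 35.5, 36.4 and 34.2 against 35.0, 46.5 and 43.7. Both sums overlapped between the groups.

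The remaining genes of both families had no call by limma. Of the 14 others listed, 13 were in the table and 7 passed the filter, and limma called 0 of these 7, with 0 at an unadjusted p under 0.05 and 0 called by voom on the recovered reads. Over all genes tested, 13.2% were called by limma, 33.1% had an unadjusted p under 0.05 and 20.8% were called by voom. Their median log2 fold change was -0.02, against -0.00167 for all genes tested, and the lowest adjusted p-value was 0.348. *SLC39A9*, for ZIP9 of the Golgi and plasma membrane, was the most abundant at 14.9 ± 0.319 FPKM (SD, n = 3) in the control group and 14.1 ± 2.26 FPKM (SD, n = 3) in the case group, with a log2 fold change of -0.02 (SE 0.10). *SLC39A8*, for ZIP8, the closest relative of ZIP14, had a log2 fold change of 0.03 (SE 0.08), *SLC39A13* of the Golgi 0.05 (SE 0.11), *SLC39A3* of the plasma membrane 0.11 (SE 0.14), *SLC39A4*, the main intestinal importer, -0.06 (SE 0.14), and *SLC39A11* -0.15 (SE 0.11). *SLC30A4*, for the vesicular exporter ZnT4, was close to the filter at 0.627 ± 0.052 FPKM and 0.451 ± 0.206 FPKM (SD, n = 3 each), with -0.42 (SE 0.36). Without case replicate 1, in which *SLC30A4* was at 0.215 FPKM, its log2 fold change was -0.07.

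The 6 family genes in the table that did not pass the filter were all faint. *SLC30A3* had at most 62 reads in a library, with 0.506 ± 0.064 FPKM in the control group and 0.272 ± 0.047 FPKM in the case group (SD, n = 3 each). *SLC30A2* had at most 7 reads, *SLC39A5* at most 3, *SLC30A10* at most 2, and *SLC30A8* and *SLC39A2* at most 1. *SLC39A12* was not analysed here.

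**Figure D3:**
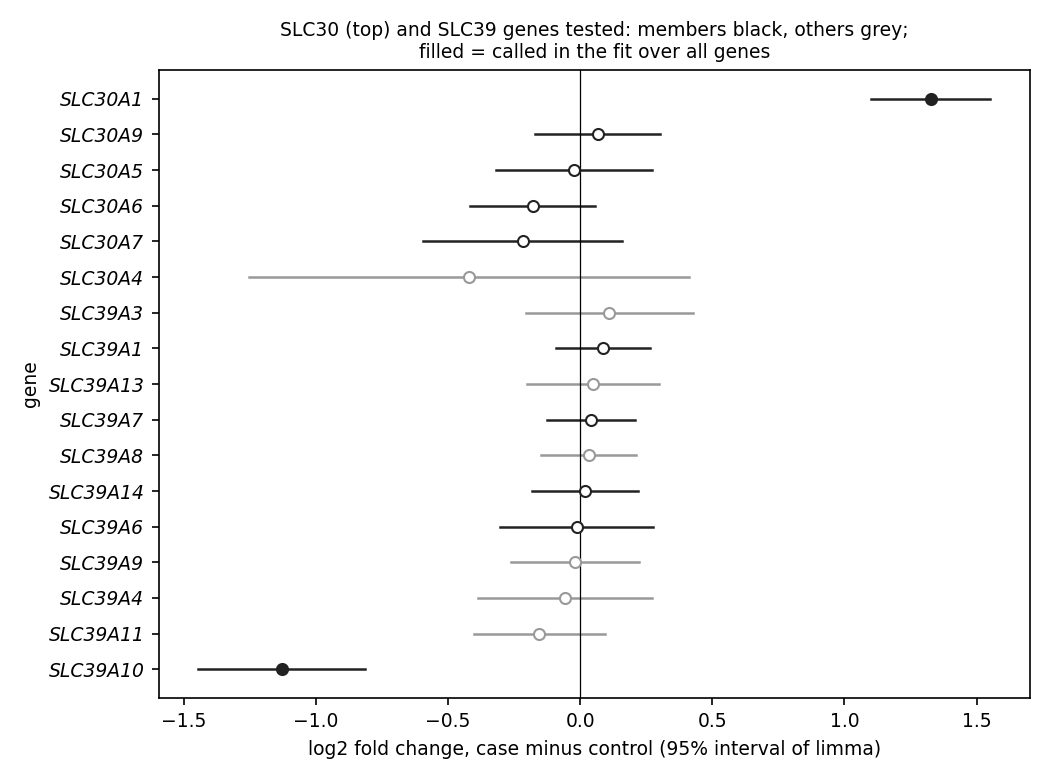
Log2 fold changes, case minus control, with 95% intervals of limma for the 17 SLC30 and SLC39 genes tested, the 10 members in black and the 7 others in grey. Filled points mark the 2 genes called in the fit over all genes tested, *SLC30A1* and *SLC39A10*, as a description of members chosen on this contrast, and the open points of the other 15 genes have intervals that include 0.

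Metallothioneins, which bind zinc and copper in the cytosol, and *MTF1* were set beside the transporters. The list was chosen with earlier results of these data known, and the study had reported *MT1E* among its top upregulated genes. The counts and p-values of this list are thus not an independent test. Of 12 genes listed, 8 were in the table and 6 were tested, and 4 of these 6 rose and 0 fell, beside 7.34% of all genes tested called higher and 5.84% called lower. *MT2A*, the most abundant of them, measured 572, 553 and 506 FPKM in control replicates 1, 2 and 3 and 1138, 943 and 1141 FPKM in case replicates 1, 2 and 3. Its log2 fold change was 1.06 (SE 0.11, limma adjusted p = 0.00477), and all 3 case libraries stood above all 3 control libraries, beside 19.5% of all genes tested. *MT1E* rose from 230 ± 15.4 FPKM to 590 ± 75.6 FPKM (SD, n = 3 each), with a log2 fold change of 1.43 (limma adjusted p = 0.00152). *MT1M* rose by 1.96 (SE 0.16) and *MT1F* by 1.56 (SE 0.14), from control means of 4.50 and 3.94 FPKM. The reads of these near-identical genes can be shared between copies, so single members are uncertain. *MT1A*, at 12.8 ± 2.77 FPKM and 14.7 ± 1.44 FPKM (SD, n = 3 each), had a log2 fold change of 0.28 (SE 0.16, limma adjusted p = 0.245), and *MTF1* itself, at 2.91 ± 0.235 FPKM and 2.40 ± 0.913 FPKM, had -0.26 (SE 0.22, limma adjusted p = 0.451). With 1 library left out, the log2 fold change of *MT1A* ran from 0.18 to 0.46 and that of *MTF1* from -0.51 to -0.02. The median log2 fold change of the 6 genes was 1.24.

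**Figure D4:**
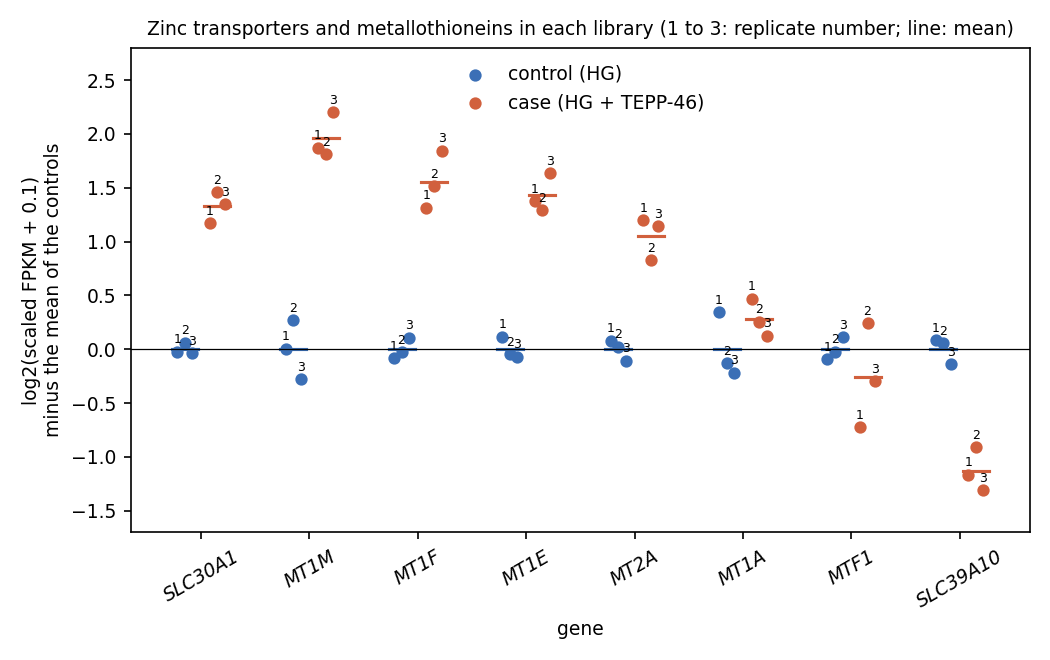
Values of each library on the log2(scaled FPKM + 0.1) scale, minus the mean of the control libraries, for *SLC30A1*, 5 metallothionein genes, *MTF1* and *SLC39A10*, with the replicate number beside each point and a line at the group mean. *SLC30A1*, *MT1M*, *MT1F*, *MT1E* and *MT2A* lie above all control points in the 3 case libraries, *SLC39A10* lies below them, and *MT1A* and *MTF1* overlap the controls.

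Promoter sequence was examined because the metal response element is shared by zinc-responsive genes. RefSeq promoter windows (GRCh38.p14, 250 bases before to 50 bases after a start) were matched by symbol for 9 of the 10 members, in 11 windows, since *SLC39A1* and *SLC39A10* had 2 each; *SLC39A14* was not analysed here. The core of the element was searched on both strands as TGCACNC and as TGCGCNC, patterns that never match at the same position of a strand, though matches on opposite strands may overlap. At least 1 core was found in 29.6% and at least 2 in 8.60% of the 35116 windows of all genes. A core was present in 5 of the 11 windows of the members, each of a different gene, and *SLC30A1* was the one member with 2. The stretches below show every core of *SLC30A1*, *SLC39A10* and *SLC30A6* and 1 of the 8 of *MT2A*, each read 5′ to 3′ on the strand of the gene with the core in capitals, so that a core on the opposite strand reads as its reverse complement.
SLC30A1, before the start: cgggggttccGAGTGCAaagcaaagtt
SLC30A1, after the start: agaccgggccGAGTGCAgctgccgtgg
SLC30A6, before the start: ttccgccacgGAGTGCAgggacagccg
SLC39A10, after its second start: ggagaggagaTGCACACggcactcgag
MT2A, before the start: gcggggctttTGCACTCgtcccggctc

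The 2 *SLC30A1* stretches lie at chr1:211579194-211579220 and chr1:211579121-211579147, with the first core base at -49 and 24 from the start, and both cores read TGCACTC on the strand opposite to the gene. The same letters were found in *SLC30A6* (chr2:32165726-32165752, first base at -128), whose log2 fold change was -0.18. The stretch of *SLC39A10* lies at chr2:195657249-195657275, 33 bases after the second of its starts, and the one of *MT2A* at chr16:56608520-56608546, with its first core base at -54. *SLC39A6* and the second window of *SLC39A1* each had 1 core of the TGCGCNC form, at -17 and -236. No core was found in the windows of *SLC30A5*, *SLC30A7*, *SLC30A9* and *SLC39A7*, nor in that of *MTF1*. Among the windows of the metallothionein genes, *MT2A* and *MT1H* had 8 cores each, *MT1X* 4, and *MT1B* and *MT4* 3 each, a count of at least 4 being found in 0.601% of all windows. Of these 5 genes *MT2A* alone was tested and rose, and *MT1E*, *MT1F* and *MT1M* had no window matched. Such a match is a run of letters in a short window and does not show binding of a factor.

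**Figure D5:**
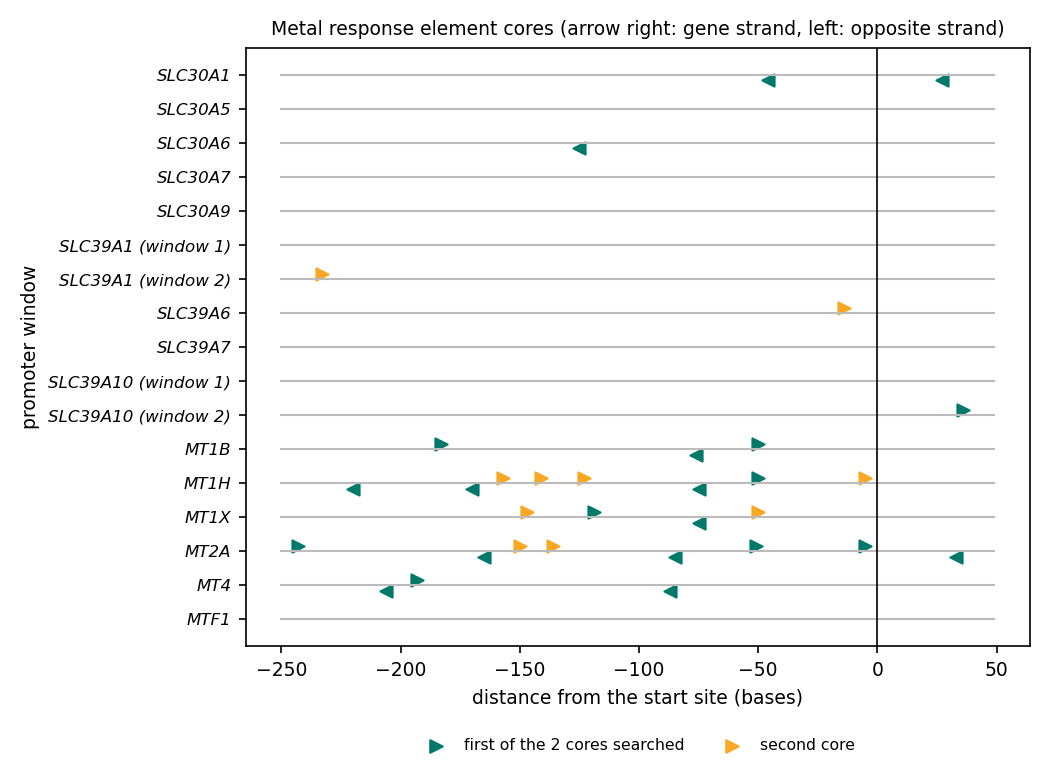
Positions of metal response element cores in the RefSeq promoter windows (grey lines) of the zinc transporter and metallothionein genes and *MTF1*, in bases from the start site (vertical line), with arrows pointing right for the strand of the gene and left for the opposite strand. *SLC30A1* has 2 cores, *SLC30A6*, *SLC39A6* and 1 window each of *SLC39A1* and *SLC39A10* have 1, and *MT2A* and *MT1H* have 8 each.

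A list of other zinc handling genes was set apart from the metallothioneins. Of the 7 tested among its 10 genes, limma called 0 (13.2% of all genes tested), 1 had an unadjusted p under 0.05 (33.1% of all genes), and voom called 1 (20.8% of all genes), with a median log2 fold change of -0.08. The 1 gene was *TMC6* (-0.33, SE 0.10, limma adjusted p = 0.0613), which was singled out after its value was seen. *CSNK2A1* and *CSNK2A2*, the catalytic subunits of casein kinase 2, which phosphorylates ZIP7, were the most abundant, and their log2 fold changes were 0.06 (SE 0.07) and 0.14 (SE 0.10).

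Zinc enzymes of the secretory pathway and cell surface, several of which receive zinc through ZnT5, ZnT6 and ZnT7, likewise had 0 calls by limma among the 10 tested of 23 listed, with 2 at an unadjusted p under 0.05 and 1 called by voom (*ADAM10*, log2 fold change -0.49, SE 0.19), beside 13.2%, 33.1% and 20.8% of all genes tested. Their median log2 fold change was -0.22. The 2 most abundant were *NT5E*, the ecto-5′-nucleotidase, with 0.20 (SE 0.08), and *PIGO*, of glycosylphosphatidylinositol anchor synthesis, with -0.01 (SE 0.11).

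Transporters of other metals had 4 calls among the 20 tested of 25 listed, which is 20% (background 13.2%), with a median log2 fold change of -0.07. *SLC25A28*, the mitochondrial iron importer mitoferrin 2, rose by 0.41 (SE 0.11, limma adjusted p = 0.0476). *ATP7B*, a copper exporter, fell by 0.76 (limma adjusted p = 0.0346), and *CNNM4* and *SLC41A1*, both magnesium transporters, fell by 0.48 and 0.47 (limma adjusted p = 0.0328 and 0.0273). *TFRC*, the transferrin receptor, and *SLC25A37*, mitoferrin 1, were the most abundant, with 0.10 (SE 0.11) and 0.13 (SE 0.08). All 4 calls were lost without any 1 of the control libraries or without case replicate 3. The call of *SLC25A28* was also lost without case replicate 1, on unscaled FPKM, after quantile normalization and on the TPM scale, where its log2 fold change was 0.21.

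The marker genes of other cell types were near 0, and a few markers moved with the groups. Fibroblast markers summed to 0.366 to 0.454 FPKM in the control libraries and 0.173 to 0.298 FPKM in the case libraries, with *COL1A1* the most abundant. Endothelial markers summed to at most 0.101 FPKM in a library, with *PECAM1* the most abundant. Leukocyte markers summed to 0.651 to 1.03 FPKM in the control libraries and 0.319 to 0.359 FPKM in the case libraries, most of it *CD14* on at most 31 reads. *CD14* measured 0.806 ± 0.161 FPKM in the control group and 0.264 ± 0.029 FPKM in the case group (SD, n = 3 each). That gene passed the filter on low values through its control libraries alone, so no test result is given for it. *CDH1*, which encodes E-cadherin, was the 1 call among 6 epithelial markers tested, or 16.7% beside 13.2% of all genes tested, from 3.42 ± 0.081 FPKM to 2.05 ± 0.248 FPKM (SD, n = 3 each), a log2 fold change of -0.64 (limma adjusted p = 0.0156). The epithelial list summed to 1172 to 1303 FPKM in the control libraries and 961 to 1293 FPKM in the case libraries. Their part in the differences of *SLC30A1* and *SLC39A10* was not tested, and in bulk RNA fewer cells of a type and less RNA per cell cannot be told apart.

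Of all 13599 genes tested, 1792 were called, 998 higher and 794 lower in the case group. On the TPM scale, in which each library sums to the same total, 2770 were called, 383 higher and 2387 lower, and the median of all genes moved to -0.19. Relative to that median, *SLC30A1* was at 1.32 and *SLC39A10* at -1.13 on the TPM scale, and the other 8 members lay between -0.21 and 0.08. Before the median was subtracted, these 8 were all below 0 on the TPM scale, from -0.41 for *SLC30A7* to -0.11 for *SLC39A1*. *SLC39A7* and *SLC39A14* were also below 0 on unscaled FPKM (-0.03 and -0.06) and after quantile normalization (-0.09 each).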

How the data were processed

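The authors aligned reads to GRCh38.p13 with HISAT2 (version 2.1.0), counted them per gene with HTSeq (version 0.6.0), and deposited FPKM values for 29483 genes in 6 libraries, 3 per group. The annotation release, strand setting and RNA selection are not given in the sources used here. The study describes the 6 replicates as independent, without naming passages or batches, and p-values measure the spread between these libraries. The study tested read counts with another tool, and FPKM were tested here on a log scale. Here each library was scaled by a median-of-ratios factor over genes whose mean FPKM was 0.5 or more, and log2(value + 0.1) of those genes was fitted with limma (version 3.58.1, R 4.3.3) with an intensity trend and no covariate, with Benjamini-Hochberg adjustment over all 13599 genes tested. Fold changes on this scale understate the change of low genes. Whole reads were recovered from the FPKM steps for all 27922 genes above 0 (100%), up to a common factor per gene that was adjusted for 1155 genes and may be missed for others, and fitted with voom as an alternative. The gene length this implied was within 1.25-fold of the annotated exon length for 83.1% of the 13489 tested genes with one. Symbols were found for 29063 of 29483 IDs. Coordinates and exon overlaps came from the GENCODE annotation of GRCh38.

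The 10 members and all gene lists were chosen with earlier results of these data known. Named were all members, all other SLC30 and SLC39 genes, *MTF1*, and in each other list up to 6 called genes by size and the 2 most abundant tested. *MT1A*, *LRP2*, *MME*, *KRT8*, *ADAM10*, *TMC6* and the top markers of untested lists fall outside this rule and were chosen after their values were seen. Also outside this rule are *MT1B*, *MT1H*, *MT1X* and *MT4*, named for their promoter windows, and *CREB3L4* and *RXRB*, named for their exon overlaps. Methods were tested on simulated data, for the fits with an equal spread in both groups. That simulation does not cover the wider spread of the case group. The alternatives were other pseudocounts, filters, scalings, limma settings, voom, a replicate block and leaving out each library.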

Additional observations from a re-analysis of the deposited data

How the results depend on the processing

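*SLC30A1* was called higher and *SLC39A10* lower in all 12 alternatives to the fit given, with log2 fold changes of 1.13 to 1.34 and -1.32 to -0.85. With 1 library left out, 1 to 2 of the 10 members were called and *SLC30A1* was called each time. The members were chosen on this contrast and every fit used these same libraries, so nothing is read from these counts. The 4 metallothionein calls and the 0 calls among the other SLC30 and SLC39 genes were the same counts in all alternatives. The number of all genes called was 520 of 27922 tested with no filter on low values. Of 13599 tested it was 852 by limma without the intensity trend, 2770 on the TPM scale and 2825 by voom on whole reads, against 1792. It ranged from 69 to 3495 with 1 library left out. Without control replicates 1, 2 and 3 it was 105 of 13610, 69 of 13609 and 87 of 13591. Without case replicates 1, 2 and 3 it was 2296 of 13682, 3495 of 13575 and 192 of 13593. The cause of this range was not tested. Other zinc handling genes had 1 call on unscaled FPKM, on TPM and by voom. Zinc enzymes had 1 call by voom and 0 to 2 with 1 library left out. Transporters of other metals had 0 calls with no filter and 1 without the trend, and 0 to 5 with 1 library left out. Factors set over every gene above 0 in all libraries, chosen after seeing the data, gave 1797 calls. The replicate numbers are in the labels without a shared batch, and deviations of same-numbered libraries correlated at 0.06, 0.10 and -0.05 across genes, so the numbers were not taken to pair the samples. A replicate block gave 1610 calls, the same 2 members called, and 3 calls among transporters of other metals, without *ATP7B*. Of the 10 members *SLC39A10* had the fewest reads, at 160 to 230 per case library.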
